A study of Mus musculus with 6 samples.

Results

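Cells of an epithelial sheet are held together by junctions, and 58 genes of these junctions were described in jejunal epithelium, out of 19938 named genes measured. They were picked by a rule on symbols, from array rows that carry 1 gene symbol: claudins, Tjp genes, Ocln, F11r, Marveld2 and Marveld3 of tight junctions (34 genes, 28 of them claudins), Dsg, Dsc and Pkp genes with Jup, Dsp and Cdh1 (14 genes), and connexins of the Gja and Gjb groups (10 genes). The rule was set with earlier results of these data known. Epithelial cells were isolated from the jejunum of mice, the stretch of small intestine between duodenum and ileum, and their RNA was hybridised to 6 gene arrays. The transgenic group held 3 animals with a doxycycline-driven Musashi transgene (TRE) and R26-M2rtTA, an activator of transcription that needs doxycycline, and the control group held 3 animals with R26-M2rtTA alone. Both groups drank doxycycline for 24 h, so the drug and the activator are shared by all arrays, and no array came from an animal without the drug. The series text names the transgene Msi1 and the genotype label of the same samples names MSI2. Because the activator stands in the broadly active Rosa26 locus, the transgene is not limited to epithelial cells by its design. The sources used here do not give the strain, sex or age of the animals.

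Tight junctions seal the space between neighbouring cells. Claudins form the strands of the seal, and single claudins make it tighter or give it pores for ions and water. Occludin, the Marveld proteins and the adhesion molecule encoded by F11r lie in the same strands or beside them, and the Tjp (ZO) proteins anchor the strands to actin under the membrane. Desmosomes bind cells by the cadherins encoded by Dsg and Dsc genes, which plakoglobin (Jup), plakophilins (Pkp) and desmoplakin (Dsp) link to keratin filaments. E-cadherin, encoded by Cdh1, is the main cadherin of the adherens junction of epithelia, and connexins form gap junction channels through which small molecules pass from cell to cell.

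The 4 promoter stretches below belong to the genes whose results matter most here: Cldn2 and Tjp3 changed most, and Cldn3 and Cldn4, which stand on chromosome 5 near each other, were both lower. Each is the 250 bases before the annotated start from RefSeq (GRCm38.p6), read 5′ to 3′ on the strand of the gene, at chrX:139800558-139800807 (plus strand) for Cldn2, chr10:81291582-81291831 (minus strand, the farther upstream of its 2 listed starts) for Tjp3, chr5:134985964-134986213 (plus strand) for Cldn3 and chr5:134946935-134947184 (minus strand) for Cldn4. Capitals mark matches to any of 6 motifs, each searched on both strands. The core promoter element called the TATA box was searched as TATAAA. The E-box bound by the repressors Snail and Zeb was searched as CACCTG. The GC box of Sp factors was searched as GGGCGG. The site of the epithelial Grainyhead factors was searched as AACCGGTT. The site of the intestinal and liver factor HNF4 was searched as CAAAGTCCA. The site of the intestinal Cdx factors was searched as TTTATG.
Cldn2: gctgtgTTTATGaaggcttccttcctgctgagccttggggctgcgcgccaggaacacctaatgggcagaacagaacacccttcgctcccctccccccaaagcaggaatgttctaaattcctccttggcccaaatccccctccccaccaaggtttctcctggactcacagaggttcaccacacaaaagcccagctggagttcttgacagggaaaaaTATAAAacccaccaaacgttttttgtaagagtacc
Tjp3: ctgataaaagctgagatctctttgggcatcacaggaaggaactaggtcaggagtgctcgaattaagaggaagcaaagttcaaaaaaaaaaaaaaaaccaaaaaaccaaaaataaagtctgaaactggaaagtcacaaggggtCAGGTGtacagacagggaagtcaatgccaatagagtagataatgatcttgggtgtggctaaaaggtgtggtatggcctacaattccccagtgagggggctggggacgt
Cldn3: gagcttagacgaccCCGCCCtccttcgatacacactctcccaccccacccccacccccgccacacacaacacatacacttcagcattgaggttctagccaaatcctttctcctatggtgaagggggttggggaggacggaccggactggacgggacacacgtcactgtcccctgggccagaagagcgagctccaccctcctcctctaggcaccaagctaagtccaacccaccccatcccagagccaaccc
Cldn4: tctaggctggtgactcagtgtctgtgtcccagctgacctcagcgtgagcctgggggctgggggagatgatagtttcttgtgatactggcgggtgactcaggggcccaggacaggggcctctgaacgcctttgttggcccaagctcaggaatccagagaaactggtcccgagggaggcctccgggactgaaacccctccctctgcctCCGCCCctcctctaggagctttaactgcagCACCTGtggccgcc
A TATA box lay 35 bases before the start of Cldn2 and a Cdx site 244 bases before it. The Tjp3 stretch held 1 E-box, the Cldn3 stretch 1 GC box, and the Cldn4 stretch an E-box 14 and a GC box 44 bases before its start. Among the 32851 promoters of the RefSeq table the shares with each motif were 12.4% for the TATA box, 17.2% for the E-box, 32.7% for the GC box, 0.116% for the Grainyhead site, 0.384% for the HNF4 site and 10.8% for the Cdx site. A match is a run of letters and not a bound site. The stretches also differed in base composition, with 52% G and C in Cldn2, 43.2% in Tjp3, 60.8% in Cldn3 and 62% in Cldn4, and promoters were listed for 40 of the 58 genes.

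The arrays first had to be checked against their labels. Msi1 had log2 signals of 12.51, 12.68 and 12.62 on transgenic arrays, against 6.95, 7.03 and 6.86 on control arrays, and Msi2 had 8.57, 8.08 and 8.01 on transgenic arrays, against 8.59, 8.71 and 8.62 on control arrays. Msi1 was thus far higher on all transgenic arrays (5.66 log2 units), and Msi2 was not higher on any of them. The 9 markers of intestinal epithelium were bright, with list medians from 11.55 to 11.90 on transgenic arrays and from 11.94 to 12.15 on control arrays. Transgenic replicate 1 stood apart: its correlation with the other arrays across genes was 0.922 to 0.951, against 0.996 between transgenic replicates 2 and 3 and 0.995 to 0.996 between control arrays. Results are therefore given with and without it.

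Junction genes changed in both directions, and their median lay at that of all genes. The threshold, an adjusted p of 0.05 in limma, was passed by 8 of 58 (13.8%), against 11.9% of all genes, 5 of them higher and 3 lower in transgenic epithelium (6.04% and 5.84% of all genes). The median difference over the 58 was -0.04 log2 units, the same as the median over all 19938 genes (-0.04). Without transgenic replicate 1, 18 passed (31.0%), 11 higher and 7 lower, against 28.6% of all genes. Transgenic and control arrays did not overlap for 21 of the 58, with 12 higher and 9 lower, against 16.0% and 18.2% of all genes. The share that changed was thus near the background in each setting, and the differences described here are those of single genes. They are shown for all 58 genes in the plot of differences by family.

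**Figure D1:**
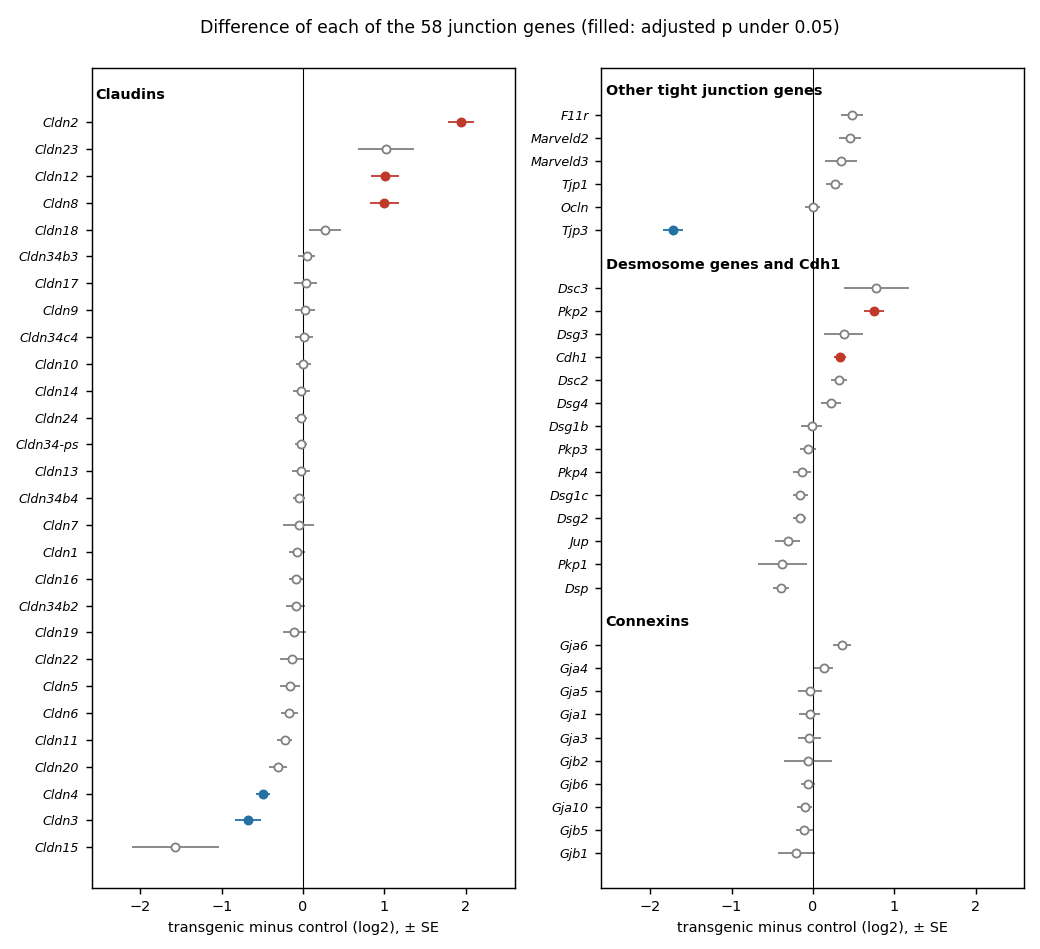
Difference between transgenic and control arrays of each of the 58 junction genes (log2, points, with the SE as bars), grouped by family. Filled points passed a limma adjusted p of 0.05: Cldn2, Cldn12, Cldn8, Pkp2 and Cdh1 were higher, Cldn4, Cldn3 and Tjp3 were lower, and most other genes lay near 0.

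Cldn2 (row 10602033), which forms channels for cations and water and is known from leaky epithelia and from the crypts of the gut, had 10.23, 9.93 and 9.95 on transgenic arrays, against 7.88, 8.02 and 8.38 on control arrays. The transgenic arrays lay close together, and the lowest of them was far above the highest control. Its rise of 1.94 log2 units (SE 0.159, limma adjusted p = 0.00206), or 3.85-fold, was the largest rise among the 58 genes. It passed with each array left out in turn, with adjusted p up to 0.0209, and was 1.85 without transgenic replicate 1. Markers of crypt base stem cells were counted beside it: of 10, Olfm4 and Ascl2 fell, against 5.84% of all genes, and the list median was -0.24. Without transgenic replicate 1, 8 fell, against 14.5% of all genes, with a median of -0.69. Medians of their difference from the control mean were 0.69, -0.65 and -0.73 on transgenic replicates 1, 2 and 3. Cldn2 was high on all 3 of these arrays, and the part of crypt cell number in it was not tested. In bulk samples, fewer cells of a type and less RNA per cell cannot be told apart.

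Cldn15 (row 10526514), the other cation pore claudin of the small intestine, was lower on every transgenic array and on one of them far lower. It had 8.69, 10.62 and 10.68 on transgenic arrays, against 11.54, 11.65 and 11.52 on control arrays. The groups did not overlap, but the difference of -1.57 (SE 0.532) did not pass (limma adjusted p = 0.126). Transgenic replicate 1 differed from the control mean by -2.88 and the mean of replicates 2 and 3 by -0.92. Without that array Cldn15 fell by 0.92 (limma adjusted p = 1.33e-04). The 15 villus enterocyte markers were also lowest on replicate 1, with list medians of -2.42, -0.19 and -0.24 from the control mean on transgenic replicates 1, 2 and 3, and summed signals of 17129 to 66516 on transgenic arrays, against 74480 to 79552 on control arrays. None of the 15 passed with all arrays, against 11.9% of all genes. At an unadjusted p under 0.05 (limma) 3 of the 15 were lower, against 2533 of all 19938 genes. All 15 differences were negative. For 10 of the 15 every transgenic array lay below every control array, against 18.2% of all genes. Without transgenic replicate 1, 6 of the 15 fell, against 14.5% of all genes. The part of these markers in the Cldn15 difference was not tested.

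Cldn12 and Cldn8 rose together with Cldn2. Cldn12 (row 10527965), a claudin tied to paracellular calcium transport in the gut, had 10.22, 9.61 and 9.68 on transgenic arrays, against 8.80, 8.86 and 8.82 on control arrays. All transgenic values were above all control values, and the rise was 1.01 (SE 0.172, limma adjusted p = 0.0169), or 0.82 without transgenic replicate 1. Cldn8 (row 10440647), a sealing claudin best known from distal gut and kidney tubules, had 7.65, 6.96 and 7.26 on transgenic arrays, against 6.27, 6.37 and 6.24 on control arrays. It rose by 1.00 (SE 0.177, limma adjusted p = 0.0196), or by 0.82 without transgenic replicate 1. Both were highest on that array. Neither call survived the removal of a control array, whichever it was, and that of Cldn8 was lost as well without transgenic replicate 3 (limma adjusted p up to 0.0849 for Cldn12 and 0.0924 for Cldn8). Without control replicate 1, 2 or 3 the differences were 1.00, 1.03 and 1.01 for Cldn12 and 0.99, 1.04 and 0.97 for Cldn8. Calls over all genes fell as well, from 11.9% to 3.43%, 3.65% and 4.41%. These shares apply to every call below that was lost without a control array.

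Cldn3 and Cldn4, neighbouring genes that encode sealing claudins of the gut, were both modestly lower. Cldn3 (row 10526241) had 9.42, 9.82 and 10.00 on transgenic arrays, against 10.41, 10.46 and 10.40 on control arrays. The difference of -0.68 (SE 0.156) passed (limma adjusted p = 0.0423) and was -0.51 without transgenic replicate 1, the lowest of the arrays. Cldn4 (row 10534395) had 9.88, 9.74 and 9.85 on transgenic arrays, against 10.40, 10.28 and 10.26 on control arrays. Its fall of 0.49 (SE 0.0859, limma adjusted p = 0.0187) was similar on all transgenic arrays. For both genes the groups did not overlap, and both lost the call without transgenic replicate 2 or any 1 control (adjusted p up to 0.159 and 0.0979). Cldn13, a mouse gene on the same stretch of chromosome 5, was dim, with a difference of -0.03.

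Cldn7 (row 10377673), a claudin along the whole side wall of gut epithelial cells, showed no difference that could be separated from its spread. It had 11.03, 11.62 and 11.74 on transgenic arrays, against 11.54, 11.48 and 11.53 on control arrays, a difference of -0.06 with a 95% interval from -0.52 to 0.41. Only transgenic replicate 1 was below the controls, and without it the difference was 0.16 (limma adjusted p = 0.221). Cldn23 (row 10578203), a claudin of differentiated colon and small intestinal cells, had 8.08, 9.27 and 9.38 on transgenic arrays, against 7.87, 7.85 and 7.96 on control arrays. All transgenic values were higher, yet replicate 1 was only 0.19 above the control mean. The difference of 1.02 (SE 0.342) did not pass with all arrays (limma adjusted p = 0.124) and was 1.43 without replicate 1, where it rose (limma adjusted p = 1.79e-05).

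The other 20 claudins lay in the lower part of the scale, with signals from 3.28 to 6.96. None of them passed, against 11.9% of all genes (limma, with Cldn11 and Cldn20 lower at an unadjusted p under 0.05). Their differences ran from -0.31 to 0.27. They were Cldn1, Cldn5, Cldn6, Cldn9, Cldn10, Cldn11, Cldn13, Cldn14, Cldn16, Cldn17, Cldn18, Cldn19, Cldn20, Cldn22, Cldn24 and the X-linked Cldn34-ps, Cldn34b2, Cldn34b3, Cldn34b4 and Cldn34c4. Of these 16 were among the dimmest 40% of all genes. Cldn5, the main claudin of endothelial cells, had values from 5.98 to 6.35 on transgenic arrays, against 6.22 to 6.44 on control arrays, and the 10 endothelial markers had list medians from 5.39 to 5.61 on transgenic arrays and 5.55 to 5.64 on control arrays. Cldn18, a claudin of stomach and lung, had 6.96, 6.20 and 6.47 on transgenic arrays, against 6.26, 6.38 and 6.20 on control arrays. Transgenic replicate 1 was the highest, replicate 3 lay slightly above all controls, and replicate 2 lay within their range. Cldn10 had a second row, which differed by -0.01, and the brighter row by 0.00. Cldn22 and Cldn24, and the Cldn34 genes among themselves, are closely related, and their probes may share signal.

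Among the 6 tight junction genes other than claudins, 1 fell and none rose with all arrays, against 5.84% and 6.04% of all genes. Tjp3 (row 10371111), which encodes the scaffold ZO-3, had 7.96, 8.26 and 8.37 on transgenic arrays, against 9.94, 9.90 and 9.90 on control arrays. No transgenic value came near the controls. The fall of 1.72 (SE 0.12, limma adjusted p = 0.00158), or 3.29-fold, was the largest fall among the 58 genes, passed with each array left out in turn (adjusted p up to 0.0174), and was 1.60 without transgenic replicate 1. Tjp1 (row 10564343), which encodes the related scaffold ZO-1, had 10.46, 10.27 and 10.14 on transgenic arrays, against 10.02, 10.01 and 10.05 on control arrays. It was slightly higher on all transgenic arrays, but the difference of 0.27 (SE 0.102) did not pass (limma adjusted p = 0.172). For Cldn2 and for Tjp3 the exact permutation test (two-sided) gave p = 0.1, the smallest that 3 arrays a group allow.

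Ocln (row 10411668) had 10.48, 10.50 and 10.42 on transgenic arrays, against 10.46, 10.35 and 10.61 on control arrays, so the groups overlapped and the 95% interval of the difference ran from -0.23 to 0.23. F11r (row 10351623), the junctional adhesion molecule JAM-A, had 11.26, 11.68 and 11.72 on transgenic arrays, against 11.08, 11.07 and 11.08 on control arrays. All transgenic values were higher, but the difference of 0.48 (SE 0.136) did not pass (limma adjusted p = 0.0798), while without transgenic replicate 1 F11r rose by 0.62 (limma adjusted p = 5.83e-04). Marveld2, which encodes tricellulin of the corners where 3 cells meet, had 9.38, 9.75 and 9.48 on transgenic arrays, against 9.23, 8.89 and 9.12 on control arrays. Its difference was 0.46 (limma adjusted p = 0.0933), and 0.54 without transgenic replicate 1 (limma adjusted p = 0.0131). Marveld3 had 9.22, 9.93 and 9.86 on transgenic arrays, against 9.29, 9.30 and 9.39 on control arrays, a difference of 0.34 (limma adjusted p = 0.363) that was 0.57 without replicate 1 (limma adjusted p = 0.00131). Of the arrays left out in turn, only the removal of transgenic replicate 1 gave either gene a call.

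**Figure D2:**
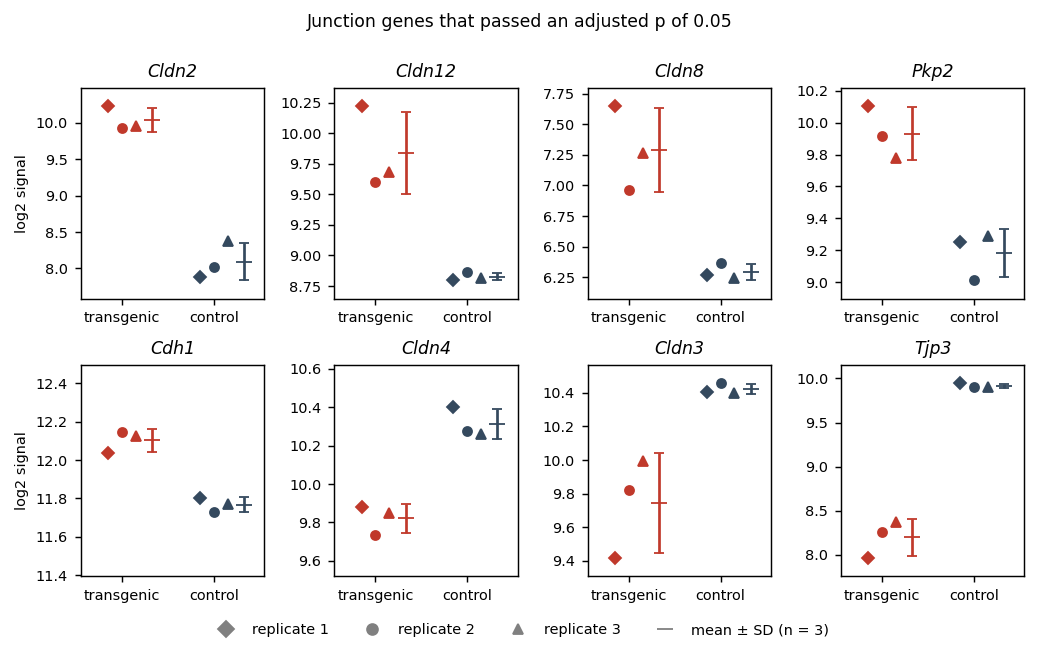
Log2 signals of the 8 junction genes that passed a limma adjusted p of 0.05, with transgenic arrays to the left of control arrays in each panel, a symbol for each replicate and the mean ± SD (n = 3) beside them. The groups do not overlap in any panel; each panel has its own scale, and Cldn2 and Tjp3 have the widest gaps.

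Of the 13 desmosome genes and Cdh1, Pkp2 and Cdh1 rose with all arrays and none fell, against 6.04% and 5.84% of all genes. Pkp2 (row 10433887), a plaque protein of desmosomes in simple epithelia and heart, had 10.11, 9.91 and 9.78 on transgenic arrays, against 9.25, 9.01 and 9.29 on control arrays. It rose by 0.75 (SE 0.125, limma adjusted p = 0.016), or 1.68-fold, with all transgenic values above all control values, and by 0.66 without transgenic replicate 1. The call was lost without transgenic replicate 2 or any 1 control (adjusted p up to 0.071). Cdh1 (row 10575052), one of the brightest genes of the table, had 12.03, 12.15 and 12.12 on transgenic arrays, against 11.80, 11.73 and 11.77 on control arrays. The rise of 0.34 (SE 0.0766, limma adjusted p = 0.0415) was small, and its call was kept only when transgenic replicate 1 was the array left out (adjusted p up to 0.161 otherwise).

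None of Dsc2, Dsg2, Dsp and Jup passed with all arrays. Dsc2, the desmocollin of simple epithelia, had 10.60, 10.82 and 10.69 on transgenic arrays, against 10.44, 10.26 and 10.44 on control arrays, a difference of 0.32 (limma adjusted p = 0.0985) that was 0.37 without transgenic replicate 1 (limma adjusted p = 0.019). Dsg2, its desmoglein partner, had 10.32, 10.18 and 10.16 on transgenic arrays, against 10.39, 10.34 and 10.41 on control arrays, and its difference of -0.16 missed the threshold (limma adjusted p = 0.295). Dsp had 10.39, 10.53 and 10.47 on transgenic arrays, against 10.80, 10.76 and 11.003 on control arrays. Desmoplakin was lower on all transgenic arrays, with a difference of -0.39 that did not pass (limma adjusted p = 0.0556), and passed as lower without transgenic replicate 1 (-0.35, limma adjusted p = 0.0291). Jup had 10.51, 10.98 and 11.04 on transgenic arrays, against 11.21, 11.16 and 11.09 on control arrays, and the difference of -0.31 did not pass (limma adjusted p = 0.289).

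The remaining plakophilins and the desmosomal cadherins of stratified epithelia gave no call with all arrays. Pkp1, a plakophilin of stratified epithelia, had 8.06, 6.91 and 7.20 on transgenic arrays, against 7.81, 7.91 and 7.58 on control arrays. Transgenic replicate 1 lay above the controls and the others below them, so the difference of -0.38 did not pass (limma adjusted p = 0.529), while without that array Pkp1 fell by 0.71 (limma adjusted p = 0.00347). Pkp3 and Pkp4 differed by -0.07 and -0.13. Dsc3, Dsg3, Dsg4, Dsg1b and Dsg1c, which belong to skin and other stratified epithelia, lay between 4.01 and 6.17 and differed by -0.15 to 0.78. Dsc3 had 6.17, 4.78 and 4.66 on transgenic arrays, against 4.52, 4.51 and 4.25 on control arrays, so its difference rested mainly on transgenic replicate 1, where Dsg3 was also highest (5.53, against 4.58 and 4.99 on the other transgenic arrays). The 10 markers of stratified squamous epithelium had list medians from 5.59 to 5.84 on transgenic arrays and 5.64 to 5.69 on control arrays, with summed signals of 499 to 552 and 517 to 526. On transgenic replicate 1 the sum was 520, within the control range. None of the 10 markers passed with all arrays, against 11.9% of all genes (limma, 1 higher at an unadjusted p under 0.05, against 2449 of all 19938 genes). Without transgenic replicate 1, 1 of the 10 rose, against 14.0% of all genes. Dsg1b and Dsg1c are near copies and may share signal.

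Connexins gave no call with all arrays: 0 of 10 passed (limma, 1 at an unadjusted p under 0.05, Gja6), against 11.9% of all genes, a share at which a count of 0 among 10 is no result about connexins, with a median difference of -0.05. Gjb1, the connexin Cx32 of liver and gut, had 7.42, 7.89 and 8.15 on transgenic arrays, against 8.17, 8.21 and 7.69 on control arrays. The groups overlapped, and the 95% interval of the difference ran from -0.76 to 0.35. Gjb2, the connexin Cx26, had 8.72, 7.74 and 7.60 on transgenic arrays, against 7.995, 8.11 and 8.12 on control arrays. Replicate 1 was above and replicates 2 and 3 were below all controls, and without replicate 1 Gjb2 fell by 0.41 (limma adjusted p = 0.00954), against a difference of -0.06 with all arrays (limma adjusted p = 0.942). Gja6, an X-linked connexin, had 5.82, 5.95 and 6.004 on transgenic arrays, against 5.73, 5.50 and 5.47 on control arrays, a difference of 0.36 (limma adjusted p = 0.0886) at a dim level, and 0.41 without transgenic replicate 1 (limma adjusted p = 0.0171). Gja1, the widely expressed connexin Cx43, was dim, from 4.70 to 5.08 on transgenic arrays, against 4.86 to 5.04 on control arrays, with a 95% interval of the difference from -0.34 to 0.26. The other 6, Gja3, Gja4, Gja5, Gja10, Gjb5 and Gjb6, had signals from 4.63 to 7.33 and differences from -0.11 to 0.13.

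Transgenic replicate 1 differed from the other transgenic arrays in the direction of some genes and in the size of others. For 12 of the 58 genes it lay at least 0.5 log2 units from the mean of replicates 2 and 3: Cldn7, Cldn8, Cldn12, Cldn15, Cldn18, Cldn23, Marveld3, Gjb1, Gjb2, Dsc3, Dsg3 and Pkp1. For 17 genes it deviated from the control mean in the opposite direction to the mean of replicates 2 and 3. Some of these lay near the controls on both sides, such as Ocln (0.01 and -0.01). Others did not, such as Gjb2 (0.65 and -0.41). Neither number was counted over all genes, so they are no trait of junction genes. Cldn2 and Tjp3 were alike on all transgenic arrays, with differences from the control mean of 2.14 and -1.95 on replicate 1 and 1.85 and -1.60 on the mean of the others. By the list median of the difference from the control mean, enterocyte markers were lowest and crypt markers highest on replicate 1. The summed crypt signal there was 7199, within the 6567 to 7713 of control arrays, and 2654 and 2554 on replicates 2 and 3. The 10 markers of T cells and intraepithelial lymphocytes had summed signals of 531 on replicate 1 and 3303 and 3313 on replicates 2 and 3, against 4402 to 5639 on control arrays. The part of these shifts in the junction genes was not tested.

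**Figure D3:**
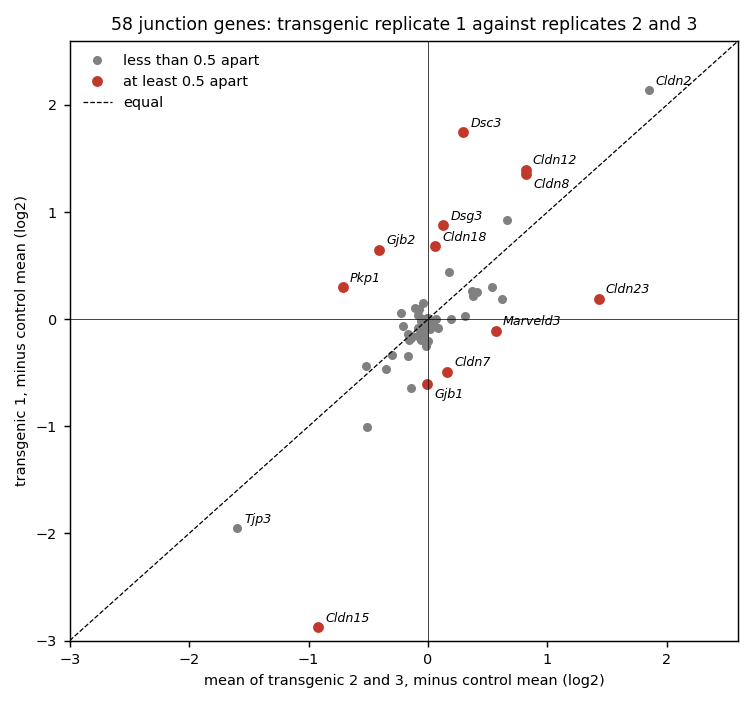
Difference from the control mean (log2) of each of the 58 junction genes, on transgenic replicate 1 (vertical axis) and on the mean of transgenic replicates 2 and 3 (horizontal axis), with a dashed line where both are equal. The 12 red points lie at least 0.5 apart, among them Cldn15 far below the line, and Cldn2 and Tjp3 lie near it at the ends.

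**Figure D4:**
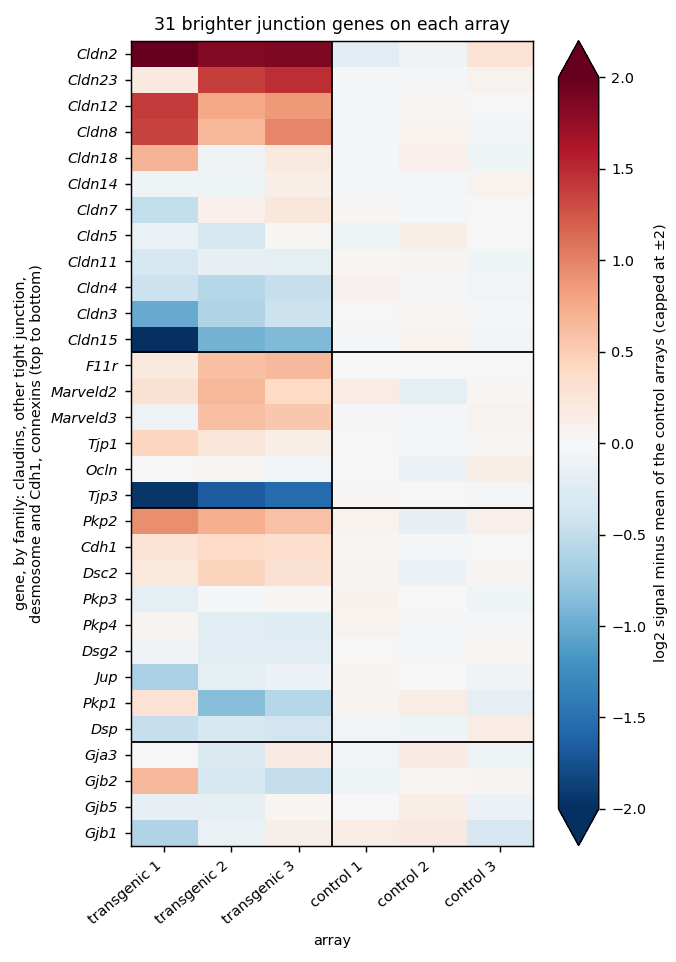
Log2 signal minus the control mean on each array (colour, capped at 2 in each direction) for the 31 junction genes above the dimmest 40% of all genes, by family. Cldn2 is high and Tjp3 low on all 3 transgenic arrays, while Cldn23, Pkp1 and Gjb2 differ between transgenic replicate 1 and the others.

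Of the 58 genes 31 passed the filter that removes the dimmest 40% of all genes. The 27 dim ones had signals from 3.28 to 6.26 on all arrays and differences from -0.31 to 0.78. Among neighbours on a chromosome, Cldn3 and Cldn4 were both lower, whereas Ocln and Marveld2 on chromosome 13 differed by 0.00 and 0.46, and Dsc2 and Dsg2 on chromosome 18 by 0.32 and -0.16.

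Proteins that work with these junctions were taken from 5 lists of 105 measured genes in all. Of these 9 passed (8.57%), 2 higher and 7 lower, against 11.9% of all genes, and without transgenic replicate 1, 32 passed (30.5%), 8 higher and 24 lower, against 28.6% of all genes (14.0% higher, 14.5% lower). The median difference of the 105 was -0.07. Among 34 plaque, polarity and membrane proteins of tight junctions 2 rose and 1 fell, against 6.04% and 5.84% of all genes. Pard6b, a polarity protein, rose by 0.76 (limma adjusted p = 0.0173) and Cxadr, a membrane protein of tight junctions and virus receptor, by 0.60 (0.0313). Amot, an angiomotin of the junctional plaque, fell by 0.82 (limma adjusted p = 0.00499). Of the arrays left out in turn, transgenic replicate 1 alone could be removed without loss of the Pard6b and Cxadr calls, and Amot passed whichever array was removed.

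Among 18 adherens junction genes 2 fell and none rose, against 5.84% and 6.04% of all genes. Lima1, an actin-binding protein, fell by 0.84 (limma adjusted p = 0.00658) and Nectin1, a nectin, by 0.49 (0.0409, a call kept only without transgenic replicate 1). The catenins Ctnnb1, Ctnna1 and Ctnnd1 differed by 0.01, -0.06 and -0.03. Of 9 keratins, plakins and other desmosome proteins none passed, against 11.9% of all genes (limma, 1 at an unadjusted p under 0.05). Of 10 other connexins and pannexins 1 passed, against 11.9% of all genes. The channel gene Panx1 had 8.10, 8.27 and 8.28 on transgenic arrays, against 9.03, 8.98 and 8.87 on control arrays. It fell by 0.74 (SE 0.0922, limma adjusted p = 0.00654).

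Among 34 regulators 3 fell and none rose, against 5.84% and 6.04% of all genes. Stk11, the kinase LKB1 of epithelial polarity, had 8.999, 8.97 and 9.01 on transgenic arrays, against 9.59, 9.71 and 9.58 on control arrays, a fall of 0.63 (SE 0.0771, limma adjusted p = 0.00611). Mylk, the myosin light chain kinase that opens tight junctions, fell by 0.56 (limma adjusted p = 0.0115), and Ovol2, a repressor that keeps epithelial identity, by 0.51 (0.0199). Amot, Lima1, Panx1 and Stk11 passed with each array left out in turn (adjusted p up to 0.0471). Mylk lost its call without control replicate 1 or 3, and Ovol2 without transgenic replicate 2 or any 1 control (adjusted p up to 0.0732 and 0.0928). Snai1 and Zeb1, repressors of E-cadherin, differed by 0.04 and -0.20, and neither passed. Of these genes, Snai1, Zeb1 and the 3 catenins were named after their values were seen.

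**Figure D5:**
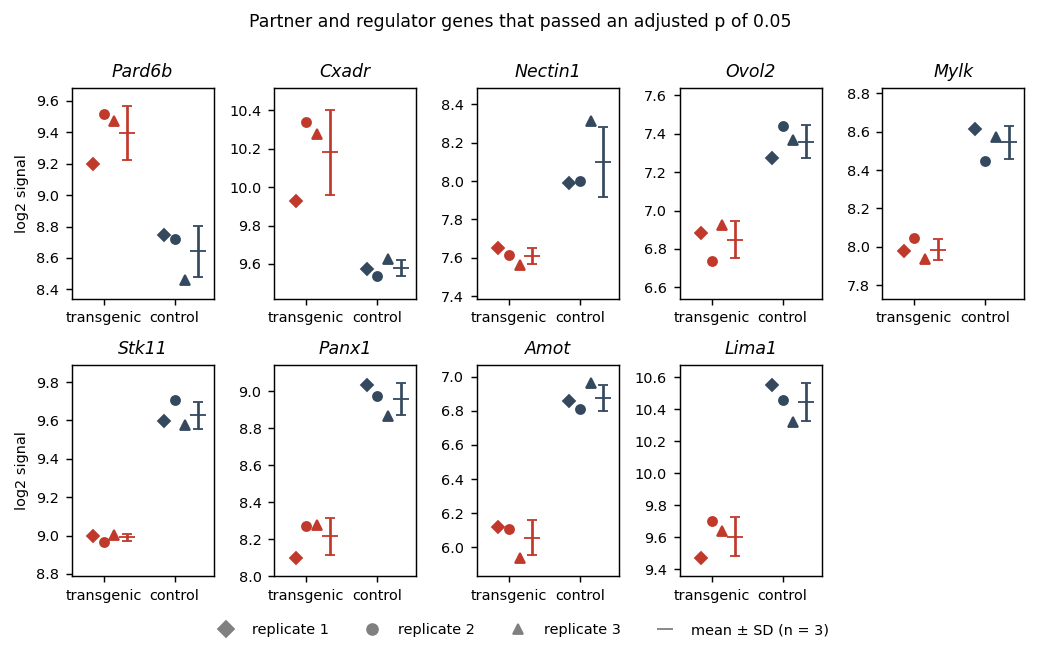
Log2 signals of the 9 partner and regulator genes that passed a limma adjusted p of 0.05, with transgenic arrays to the left of control arrays in each panel, a symbol for each replicate and the mean ± SD (n = 3) beside them. Pard6b and Cxadr are higher on transgenic arrays, the other 7 genes are lower, and the groups do not overlap in any panel.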

How the data were processed

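The values of the table deposited by the authors are log2 signals. RMA and Partek 6.5 are named in the submitters' processing notes, and the sources used here do not give their settings. RMA brings arrays to nearly 1 distribution (medians 6.27 to 6.34 here), which hides any difference in the amount of RNA per cell.

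Gene names came from the platform annotation: 21789 of 35399 rows had 1 symbol, 1621 had several and 11989 had none. Rows with 1 symbol were used, and the row with the highest mean over the 6 arrays stood for its gene, which gave 19938 genes. RefSeq (GRCm38.p6) matched 19856 of them by Entrez ID and supplied chromosomes and promoters.

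Transgenic minus control differences were fitted with limma 3.58.1 in R 4.3.3, without a variance trend, and p-values were adjusted over all genes by the Benjamini-Hochberg method with a threshold of 0.05. The fit was tested on simulated data. SEs and 95% intervals are those of the fit. Groups follow the sample titles, and the arrays are separate animals per the series text. Having 3 arrays per group limits the precision.

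By the naming rule every one of the 58 genes is named. Values of each array are given for genes that passed with all arrays or with 1 array left out, and for main junction genes of small intestine. Of each partner or cell type list, up to 4 passing genes are named. The members and lists were chosen with earlier results of these data known. The cell type lists were intestinal epithelium, enterocytes, crypt base stem cells, goblet cells, endothelium, fibroblasts, smooth muscle, T cells, macrophages, B cells, squamous epithelium and glia. Alternatives were other scalings, removal of the dimmest 40% of genes, replicate numbers as a block, a variance trend with robust fitting, weighting of arrays, averaging the rows of a gene, each array left out, and an adjusted p under 0.1.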

Additional observations from a re-analysis of the deposited data

How the results depend on the processing

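The count of 8 junction genes became 2 with the title's replicate number as a block, 14 with the number in the description as a block, 18 with array weights and 13 at an adjusted p under 0.1, and ran from 2 to 18 with 1 array left out. Over all genes the share called was 11.9% at first, 3.68% and 20.2% with these blocks, 28.9% with weights, 17.1% at 0.1 and 3.43% to 28.6% with 1 array left out, so the counts of junction and partner genes moved with that of all genes. For the 6 tight junction genes these counts were 2 and 11 with the blocks and 12 with weights, with a range of 2 to 11. For Pkp2 and Cdh1, the 2 called among desmosome genes and Cdh1, they were 0 with the title block, 5 with weights, 4 at 0.1, 1 with the dimmest genes removed and 1 with a variance trend and robust fit, with a range of 0 to 5. For the 0 connexins they were 1 with the description block, 1 with weights and 1 at 0.1, with a range of 0 to 2. The 9 partner genes became 1 and 17 with the blocks, 31 with weights and 17 at 0.1, with a range of 4 to 32. The description block rests on the shared numbers 3 and 4 alone. That leaves too few arrays to measure the spread, so its calls are not counted as support. The upper end of each range came without transgenic replicate 1, and Cldn2 and Tjp3 passed with the title block and with each array left out. With the description block their differences were 1.74 and -1.59. Differences without a call changed sign in some settings: Cldn7 was 0.17 with the description block, 0.092 with weights and -0.19 to 0.16 with 1 array left out. Gjb1 was 0.068 with the description block. Ocln was 0.036 with equal array medians, 0.0060 with weights and -0.063 to 0.064 with 1 array left out. Gja1 ran from -0.12 to 0.074 and Gjb2 from -0.41 to 0.16. The causes were not tested. Deviations from the group mean of arrays with 1 number correlated at -0.07, -0.17 and -0.12, and no array correlated best with its own number. With 3 arrays a group this cannot show whether the arrays were paired, and no pairing is stated. The Msi1 difference was 5.62 to 5.71 with 1 array left out, and the median difference of the junction genes -0.09 to -0.01.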

Other observations

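Markers of other cell types that the preparations could hold were counted beside the junction genes. Muc2 fell among 7 goblet cell markers (-0.33, limma adjusted p = 0.0363), with summed signals of 20031 to 24317 on transgenic arrays, against 28986 to 29131 on control arrays. Cd8b1 fell among the 10 T cell markers (-0.55, limma adjusted p = 0.0101), and Cd14 rose among 7 macrophage markers (1.06, limma adjusted p = 0.0119). Of all genes 5.84% fell and 6.04% rose. The macrophage list as a whole did not rise: 5 of its 7 differences were negative and the median was -0.05. Its summed signals overlapped, at 729 to 1366 on transgenic arrays, against 1020 to 1317 on control arrays. Without transgenic replicate 1, 4 of the 7 goblet and 7 of the 10 T cell markers fell, against 14.5% of all genes. Olfm4 fell by 3.37 and Ascl2 by 1.03 among 10 crypt markers (limma adjusted p = 9.31e-04 and 0.0142). Of these 10, 8 fell without transgenic replicate 1, against the same 14.5% of all genes. No marker passed in the lists of endothelium, fibroblasts, smooth muscle, B cells and glia, against 11.9% of all genes. Of their 10, 8, 6, 5 and 4 markers, 0, 1, 0, 1 and 0 had an unadjusted p under 0.05 (limma). Over all 19938 genes 2449 were higher and 2533 lower at that level. Without transgenic replicate 1, 1 endothelial and 1 fibroblast marker fell and no other marker passed, against 14.5% of all genes that fell. All 10 endothelial and all 8 fibroblast differences were negative. In smooth muscle, B cells and glia 3, 1 and 2 were negative. Summed signals of endothelium, fibroblasts, smooth muscle, B cells and glia were 460 to 486, 611 to 723, 315 to 362, 268 to 305 and 336 to 420 on transgenic arrays, against 511 to 528, 704 to 812, 316 to 341, 279 to 344 and 355 to 391 on control arrays.

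Rows shared by several symbols were not part of the comparison. The row of Dsg1b, Dsg1c and Dsg1a lay between 4.81 and 5.06 on transgenic arrays, against 4.91 to 5.08 on control arrays, and the row of Dzip1 and Cldn10 between 4.58 and 4.70 on transgenic arrays, against 4.63 to 4.74 on control arrays. The groups overlapped in both.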
